A study of Mus musculus with 6 samples.

Results

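This report describes 9 genes of glucagon and somatostatin cell identity in islet cells of newborn mice, sorted by whether they had expressed the signalling gene Wnt4. The genes are Irx1, Irx2, Pou3f4, Ttr, Gc, Dpp4, Slc7a2 and Loxl4, which are used as marks of the glucagon-producing α-cell, and Hhex, which marks the somatostatin-producing δ-cell. They were found on the array by matching the RefSeq transcript that each probe names to the gene symbol, which gave 13 probes for the 9 genes, among 45616 genes and unnamed probes tested in all. The rule itself uses no measured value, but the genes were proposed with earlier results of these data known. Each gene was followed by its brightest probe on average, and the other probes of Ttr, Dpp4 and Loxl4 are given beside it.

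The islets came from pups at postnatal day 1 (P1) of a cross with the Wnt4 tracer allele Wnt4eGFPCre (Wnt4 tm2(EGFP/cre)Svo) and the reporter mTmG (a tm4 allele of Gt(ROSA)26Sor with ACTB-tdTomato and EGFP), crossed to C57BL/6J and untreated. In pups with both alleles Cre made under control of Wnt4 switches the cell membrane from tdTomato to GFP for good, so that GFP marks cells that had expressed Wnt4 and not only those expressing it at the time. GFP-positive cells are called Wnt4hi and GFP-negative cells Wnt4low, with 3 arrays of each (Wnt4hi replicates 2, 3 and 4, Wnt4low replicates 1, 3 and 4) and 3 or 4 pups pooled for each array. The tracer is not restricted to β-cells, since the study also saw it in some α-cells, and the sources used here do not settle whether both populations came from the same pups. The methods define the populations by GFP, but part of the study describes the negative one as coming from pups without the tracer allele, in which GFP-negative cells could include cells that had expressed Wnt4.

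The α-cell secretes glucagon, which raises blood glucose, and the δ-cell secretes somatostatin, which restrains the neighbouring α- and β-cells. Both arise from the same endocrine progenitors as the β-cell, and transcription factors that are kept on mainly in 1 of these cell types, such as IRX1, IRX2 and POU3F4 in α-cells and HHEX in δ-cells, help to set and hold their identity. The remaining genes of the set are products that α-cells make in quantity or at their surface rather than switches of identity.

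Levels are given as log2 intensity after background correction and quantile normalization, a scale on which a difference of 1 is a 2-fold change. Values of different genes come from different probes and were not compared with each other. Summed levels of a gene list add the intensities of different probes, so they follow the brightest genes of the list. Differences are Wnt4hi minus Wnt4low, tested with limma over all 45616 features, and adjusted p-values are Benjamini-Hochberg values over all of them. An exact permutation test of 3 arrays against 3 cannot go below a two-sided p of 0.1, so none was used. In RNA from sorted pools, fewer cells of a type and less RNA per cell cannot be told apart.

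The arrays were of similar quality. Between 70.5% and 79.5% of the spots were well above background on each, the median ratio of signal to local background ran from 10.8 to 15.7, and no spot was saturated. Wnt4 itself, the gene of the sort, was 11.20, 10.53 and 10.77 on the Wnt4hi arrays and 9.85, 10.11 and 9.31 on the Wnt4low arrays. This is a difference of 1.08 (SE 0.27) without overlap, with an adjusted p of 0.210 in limma. One Wnt4low array, replicate 1, stood apart in the levels of endocrine genes. Its mean over 14 genes shared by all islet endocrine cells, among them Chga, Chgb and Neurod1, was 10.88, against 12.06 and 11.74 on the other Wnt4low arrays and 12.68, 12.82 and 12.82 on the Wnt4hi arrays. The differences of the 9 genes are given with and without it, as are the medians of the endocrine lists.

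Of the 9 genes, Irx1, Pou3f4 and Dpp4 were higher and Hhex was lower in Wnt4hi cells at an unadjusted p under 0.05, the threshold of the study. Over all features, 5.06% were higher and 5.53% lower by the same rule. No member passed at an adjusted p under 0.05 in limma, where 0.0351% of all features were higher and 0.406% lower. The difference was above 0 for 8 of the 9 genes, as it was for 28994 of all 45616 features, with a median of 1.02 against 0.07. The median of the 9 was 0.63 without Wnt4hi replicate 4 and 0.67 without Wnt4low replicate 1. The groups did not overlap for 5 genes, Irx1, Pou3f4, Ttr and Dpp4 with Wnt4hi above and Hhex with Wnt4hi below, and 9.63% and 6.44% of all features were separated in these directions. Without Wnt4low replicate 1 only Ttr and Hhex were past the unadjusted threshold, with 1 array fewer in the test. The differences of Pou3f4 and Dpp4 were then 1.37 and 1.03, close to those over all arrays, while that of Irx1 was 1.15 in place of 2.02.

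**Figure D1:**
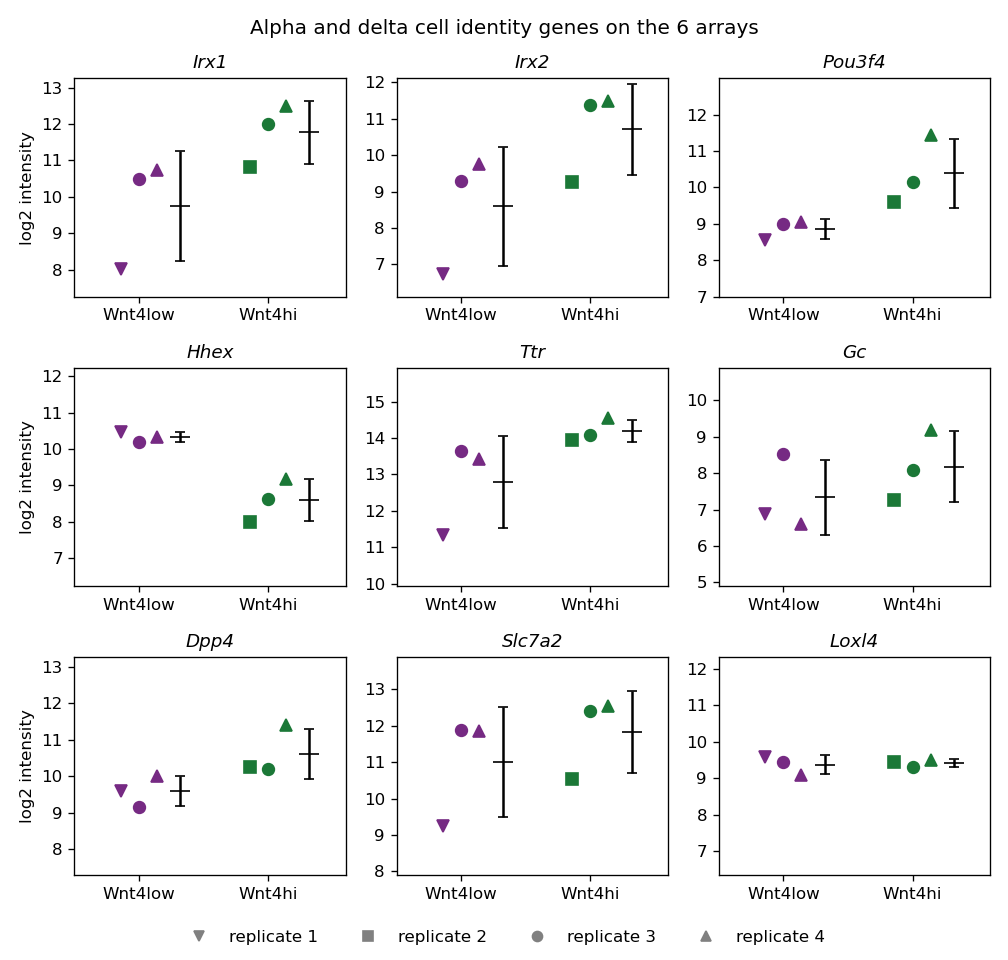
Log2 intensity of the 9 genes (vertical axes, each panel spanning its own range of levels) on the 3 Wnt4low and 3 Wnt4hi arrays, with a marker for each replicate number and a bar for the mean and SD of each group. Wnt4low replicate 1 lies far below the other arrays for Irx1, Irx2, Ttr and Slc7a2, and Hhex is the gene whose Wnt4hi arrays all lie below the Wnt4low arrays.

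The first group of members are transcription factors. Irx1, a homeobox factor of the Iroquois family found in α-cells, was 10.81, 12.001 and 12.50 on the Wnt4hi arrays and 8.01, 10.50 and 10.74 on the Wnt4low arrays. The lowest Wnt4hi array stood only just above the highest Wnt4low array, and Wnt4low replicate 1 was far below all others. The means were 11.77 ± 0.87 and 9.75 ± 1.51 (SD, n = 3 each). Irx1 was 4.06-fold higher in Wnt4hi cells, a log2 difference of 2.02 (SE 0.82, 95% interval 0.03 to 4.01). Its unadjusted p in limma was 0.0473 and its adjusted p was 0.463. Without Wnt4low replicate 1 the difference was 1.15, with an unadjusted p of 0.0737 in limma, and without Wnt4hi replicate 4 it was 1.66, with a p of 0.136. The call was also lost without Wnt4hi replicate 3 or Wnt4low replicate 3, at differences of 1.91 and 2.40. Before normalization, the median spot intensity of Irx1 was 1804, 4700 and 4650 on the Wnt4hi arrays against 262, 1408 and 1471 on the Wnt4low arrays.

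Irx2, the neighbouring gene of the same family, gave 9.26, 11.37 and 11.50 on the Wnt4hi arrays. On the Wnt4low arrays it gave 6.72, 9.30 and 9.77, and the lowest of these was not well above background. Here Wnt4hi replicate 2 lay below 2 of the Wnt4low arrays, so that the groups overlapped. The log2 difference was 2.11 (SE 0.97, 95% interval -0.25 to 4.47), the widest interval among the 9 genes, with a limma p of 0.0710 and an adjusted p of 0.534. It was 1.17 without Wnt4low replicate 1 and 2.84 without Wnt4hi replicate 2, where the unadjusted p was 0.0248. Irx1 and Irx2 both lie on chromosome 13 with no protein-coding gene between them, and among all pairs of members their profiles over the 6 arrays were the most alike. Once each gene's own mean was taken away, they differed by a root mean square of 0.29 on the log2 scale.

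Pou3f4, also known as Brn4, is a POU-domain factor of α-cells whose gene lies on the X chromosome. It was 9.60, 10.14 and 11.44 on the Wnt4hi arrays and 8.55, 8.996 and 9.05 on the Wnt4low arrays. The Wnt4low arrays lay close together, replicate 1 included, and all Wnt4hi arrays were above them, with replicate 4 well above the rest. The means were 10.39 ± 0.95 and 8.87 ± 0.27 (SD, n = 3 each). Pou3f4 was 2.88-fold higher in Wnt4hi cells, with a log2 difference of 1.53 (SE 0.47, 95% interval 0.38 to 2.67). The unadjusted p in limma was 0.0171 and the adjusted p was 0.311. Among the 8 α-cell members it had the smallest p. The difference was 1.003 without Wnt4hi replicate 4, with an unadjusted p of 0.0109 in limma, and 1.37 without Wnt4low replicate 1, with an unadjusted p of 0.0548.

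Hhex, a homeobox factor required for δ-cells and also known from endothelial and liver development, went the other way. It was 7.99, 8.61 and 9.16 on the Wnt4hi arrays and 10.48, 10.20 and 10.34 on the Wnt4low arrays. The Wnt4low arrays were within 0.3 of each other, and even the highest Wnt4hi array was more than 1 below them. The means were 8.59 ± 0.58 and 10.34 ± 0.14 (SD, n = 3 each). Hhex was 3.36-fold higher in Wnt4low cells, with a log2 difference of -1.75 (SE 0.30, 95% interval -2.48 to -1.01). The unadjusted p in limma was 0.00106, the smallest of the 9, and the adjusted p was 0.0920. Leaving out each array in turn kept the difference between -2.03 and -1.45, and it was -1.68 without Wnt4low replicate 1. Before normalization its median spot intensity was 216, 464 and 427 on the Wnt4hi arrays and 1627, 1139 and 1104 on the Wnt4low arrays.

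Promoter sequences are shown for the transcription factors of this set that had an entry in the RefSeq table of mouse promoters (GRCm38.p6), since these regulators stand at both ends of the differences, Irx2 and Pou3f4 above 0 and Hhex below. Each is 300 bases, from 250 before to 50 after the gene's start, read 5′ to 3′ on the plus strand. Irx2 is at chr13:72628570-72628869, Pou3f4 at chrX:110814129-110814428 and Hhex at chr19:37434591-37434890. Capitals mark a CCAAT box on either strand (CCAAT, or ATTGG where it lies on the other strand).
Irx2: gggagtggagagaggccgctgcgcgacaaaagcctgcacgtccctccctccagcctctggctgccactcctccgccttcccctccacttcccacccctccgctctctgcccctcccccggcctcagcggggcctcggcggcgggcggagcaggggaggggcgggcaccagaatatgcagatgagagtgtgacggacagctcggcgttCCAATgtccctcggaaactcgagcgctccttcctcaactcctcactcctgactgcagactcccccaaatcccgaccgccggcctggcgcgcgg
Pou3f4: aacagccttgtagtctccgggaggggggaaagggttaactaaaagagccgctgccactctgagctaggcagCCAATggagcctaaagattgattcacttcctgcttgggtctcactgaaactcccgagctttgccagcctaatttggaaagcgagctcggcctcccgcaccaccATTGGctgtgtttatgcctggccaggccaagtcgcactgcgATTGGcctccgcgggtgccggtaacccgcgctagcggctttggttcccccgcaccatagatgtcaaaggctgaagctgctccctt
Hhex: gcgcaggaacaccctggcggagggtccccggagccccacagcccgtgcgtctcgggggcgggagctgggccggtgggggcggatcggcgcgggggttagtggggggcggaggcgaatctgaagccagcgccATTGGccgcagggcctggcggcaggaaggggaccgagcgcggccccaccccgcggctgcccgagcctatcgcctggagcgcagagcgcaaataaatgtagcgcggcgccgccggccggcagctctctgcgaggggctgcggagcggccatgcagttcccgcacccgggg
Irx2 and Hhex held 1 CCAAT box each and Pou3f4 held 3, and 37.4% of all 32851 promoters in the table held at least 1. All 3 sequences were richer in CpG than the median promoter, which held 7. Irx2 held 25 CpG, Pou3f4 15 and Hhex 37, more than 81.6%, 65.4% and 94.4% of all promoters. A further 3 members had an entry, with 0 CpG in Gc, 4 in Dpp4 and 32 in Loxl4, while Irx1, Ttr and Slc7a2 had none. The letters TAATTA, a core bound by many homeodomain factors, and TGTTTAC, a forkhead site, were searched on both strands and were absent from all 6 windows. They occurred in 5.29% and 3.65% of all promoters. TATAAA, the TATA box, occurred once, in Dpp4, and in 13.6% of all promoters.

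The next members encode secreted carrier proteins. Ttr, transthyretin, which carries thyroid hormone and retinol-binding protein and is made in quantity by α-cells, was 13.96, 14.09 and 14.55 on the Wnt4hi arrays and 11.33, 13.63 and 13.41 on the Wnt4low arrays. All Wnt4hi arrays lay above all Wnt4low arrays, by a small margin apart from Wnt4low replicate 1. The means were 14.20 ± 0.31 and 12.79 ± 1.27 (SD, n = 3 each), a 2.65-fold difference whose 95% interval on the log2 scale, -0.10 to 2.91, included 0. The unadjusted p in limma was 0.0629 and the adjusted p 0.511. Without Wnt4low replicate 1 the log2 difference was 0.67 with a smaller SE of 0.23, and the unadjusted p in limma was 0.0320. A second, dimmer Ttr probe gave a 2.91-fold difference (adjusted p = 0.374 in limma), but was well above background on only 1 of the Wnt4low arrays.

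Gc, the vitamin D binding protein, was near the limit of detection. It was 7.27, 8.09 and 9.19 on the Wnt4hi arrays and 6.87, 8.52 and 6.62 on the Wnt4low arrays, and was well above background on 2 and 1 of them. The groups overlapped, and the log2 difference was 0.85 (SE 0.67, 95% interval -0.78 to 2.47, adjusted p = 0.759 in limma). The difference was 0.35 without Wnt4hi replicate 4, 0.61 without Wnt4low replicate 1 and 1.44 without Wnt4low replicate 3. Ttr and Gc are also products of the liver, and liver genes were checked beside them. Of 6 hepatocyte genes, Fgb and Serpina1a were higher in Wnt4hi cells at an unadjusted p under 0.05, by 1.93 and 1.21. Alb and Apoa1 lay between 7.91 and 8.53 on all arrays and Afp was not well above background on any. Ahsg differed by -0.615 with overlapping groups. The median difference of the list was 0.13, with 4 genes above 0 and 2 below. The log2 of the summed intensity of the list was 12.29 to 12.75 in Wnt4hi and 11.31 to 11.92 in Wnt4low cells. Fgb and Serpina1a weighed most in these sums. The part of liver genes in the values of Ttr and Gc was not tested.

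The last members act at the cell surface or outside the cell. Dpp4, dipeptidyl peptidase 4, which inactivates the incretin hormones, was 10.25, 10.19 and 11.40 on the Wnt4hi arrays and 9.61, 9.17 and 10.00 on the Wnt4low arrays. The groups were separate by a narrow margin, with Wnt4hi replicate 4 far above the other Wnt4hi arrays. The means were 10.61 ± 0.68 and 9.59 ± 0.42 (SD, n = 3 each). Dpp4 was 2.03-fold higher in Wnt4hi cells, with a log2 difference of 1.02 (SE 0.39, 95% interval 0.08 to 1.97). The unadjusted p in limma was 0.0383 and the adjusted p was 0.428. Without Wnt4hi replicate 4 the difference was 0.63, with an unadjusted p of 0.0706 in limma, and without Wnt4low replicate 1 it was 1.03, with an unadjusted p of 0.0803. Without Wnt4low replicate 3 it was 0.81, with an unadjusted p of 0.118 in limma. A second Dpp4 probe, well above background on 2 arrays of each group, had overlapping groups and a 1.81-fold difference with a limma p of 0.387. The mean of both probes differed by 0.94, with an unadjusted p of 0.178.

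Slc7a2 encodes a transporter of arginine and lysine, amino acids that provoke glucagon release. It was 10.54, 12.41 and 12.54 on the Wnt4hi arrays and 9.26, 11.89 and 11.87 on the Wnt4low arrays. Both groups held 1 low array and a pair of high ones, and they overlapped. The log2 difference of 0.82 (SE 0.88, 95% interval -1.32 to 2.97, adjusted p = 0.832 in limma) became -0.05 without Wnt4low replicate 1.

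Loxl4, a lysyl oxidase-like enzyme that crosslinks matrix proteins, varied least. It was 9.45, 9.30 and 9.51 on the Wnt4hi arrays and 9.60, 9.45 and 9.08 on the Wnt4low arrays. The arrays were intermixed within a range of 0.52, and the log2 difference was 0.05 (SE 0.18, 95% interval -0.38 to 0.48, adjusted p = 0.959 in limma), or 0.16 without Wnt4low replicate 1. The other Loxl4 probes, each well above background on 1 array of either group, gave ratios of Wnt4hi to Wnt4low of 1.06 and 0.843.

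The members also differed from each other in how single arrays contributed. With each gene taken relative to its own mean over the 6 arrays, the median of the 8 α-cell members was 0.01, 0.55 and 1.36 on Wnt4hi replicates 2, 3 and 4. On Wnt4low replicates 1, 3 and 4 it was -1.62, -0.11 and -0.09. Wnt4hi replicate 4 had all 8 α-cell members above their own mean, whereas Wnt4low replicate 1 had 7 of 8 below it. Wnt4hi replicate 2 had 4 of 8 below their mean although its pan-endocrine genes were nearly as high as on the other Wnt4hi arrays.

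The profile most like that of a member was searched among 16153 named genes that were well above background on all 6 arrays, by the root mean square of the differences between profiles, each relative to its own mean. It is a description of 6 arrays that share the same contrast. The gene nearest to Ttr was Gcg, the glucagon gene itself, at 0.13, followed by H2-Q1 at 0.15. Nearest to Hhex were Sema6d at 0.19 and Prkg1 at 0.22, and nearest to Pou3f4 were Aldh5a1 at 0.24 and Smarca1 at 0.26, the latter also on the α-cell list. Irx1 was closest to Prune2 at 0.32 and Sphkap at 0.33, Dpp4 to Zfp941 at 0.19 and Ccdc167 at 0.20, and Slc7a2 to Mdm1 at 0.29 and Cstf3 at 0.36. Irx2 and Gc were not above background on all arrays and Loxl4 varied too little for this measure.

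Other genes of the same cell types were read beside the members. Of 11 further α-cell genes, 6 were higher and 3 lower in Wnt4hi cells at an unadjusted p under 0.05, and none passed at an adjusted p under 0.05 in limma. The median difference was 1.26, against 0.07 for all features. Tm4sf4, a tetraspanin-like membrane protein, was 11.81, 12.66 and 11.69 on the Wnt4hi arrays and 9.31, 10.99 and 10.82 on the Wnt4low arrays, a difference of 1.68 (SE 0.51, adjusted p = 0.302 in limma). The crystallin gene Cryba2 differed by 1.56 (SE 0.27, adjusted p = 0.0934) and the glutamine transporter gene Slc38a5 by 1.52 (SE 0.43, adjusted p = 0.262). Peg10, Smarca1 and Wnk3 completed the 6, at 1.54, 1.26 and 1.16, and Sv2b differed by 0.03. Gcg was 15.12, 15.46 and 15.91 on the Wnt4hi arrays and 12.74, 15.23 and 14.69 on the Wnt4low arrays. The groups of Gcg overlapped, and its difference of 1.27 had a limma p of 0.0954. The difference of Gcg was 0.53 without Wnt4low replicate 1, with an unadjusted p of 0.139 in limma. Without Wnt4low replicate 3 it was 1.78, with an unadjusted p of 0.0345. The 3 lower genes were Plce1 at -1.10, Fap at -1.22 and Rgs4. Rgs4 was not well above background on any Wnt4hi array and was at least 1.79-fold lower there (adjusted p = 0.210 in limma), taken against the lowest signal of any probe well above background where that was higher than its own. Fap is also a gene of activated fibroblasts, and its call was lost without Wnt4hi replicate 3 or 4 or Wnt4low replicate 4, at differences of -1.01, -1.09 and -0.99. The call of Tm4sf4 was lost without Wnt4hi replicate 3, at 1.37. The counts of 6 higher and 3 lower were the same without Wnt4low replicate 1, with a median difference of 1.04.

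**Figure D2:**
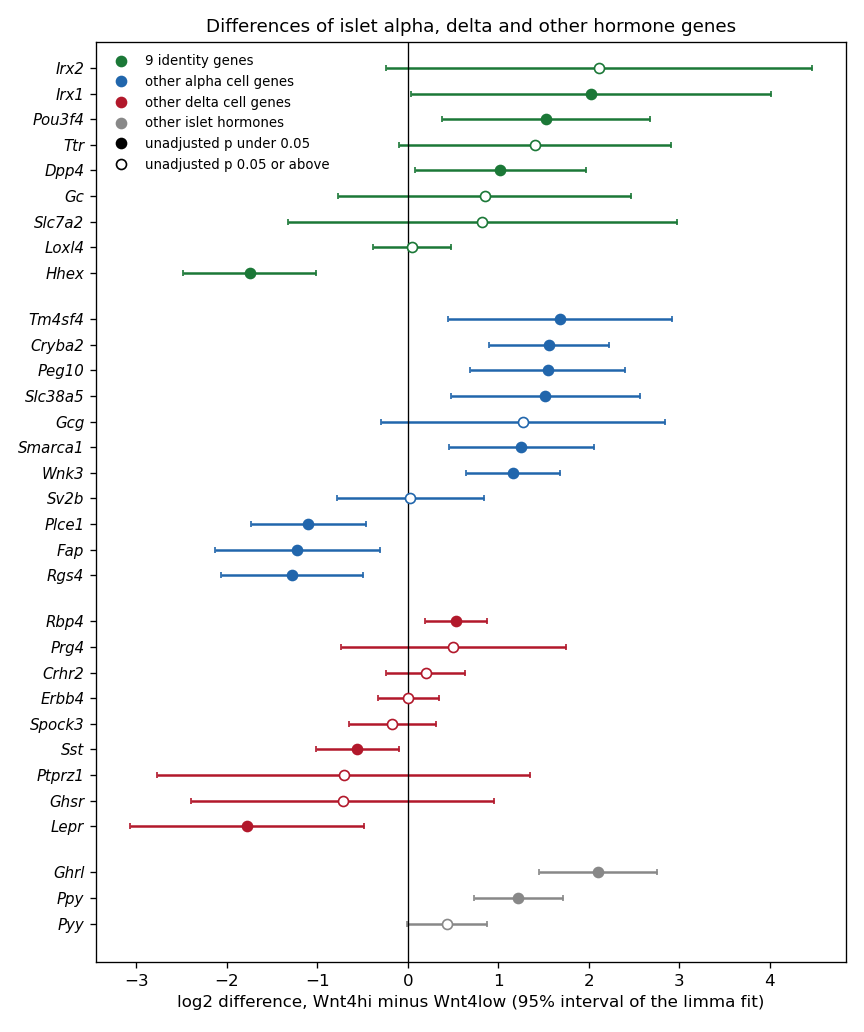
Log2 difference between Wnt4hi and Wnt4low cells (horizontal axis, bars are 95% intervals of the limma fit) for the 9 genes, 11 other α-cell genes, 9 other δ-cell genes and 3 other islet hormones, with filled points for an unadjusted p under 0.05. Most α-cell genes lie to the right of 0 with wide intervals, Hhex, Lepr and Sst lie to the left, and Ghrl lies to the right with a narrower interval.

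δ-cell genes other than Hhex did not share 1 direction. Of 9 such genes, 1 was higher and 2 were lower at an unadjusted p under 0.05, with a median difference of -0.17, and Erbb4 and Spock3 were not well above background on any array. Sst, the somatostatin gene, was 13.30, 13.61 and 13.80 on the Wnt4hi arrays and 14.35, 13.97 and 14.06 on the Wnt4low arrays. Its groups did not overlap, and the log2 difference was -0.56 (SE 0.19, adjusted p = 0.356 in limma). Sst and Hhex were not tested against each other. The leptin receptor gene Lepr differed by -1.78 (SE 0.53, adjusted p = 0.297 in limma), and Rbp4, the retinol-binding protein abundant in δ-cells, differed by 0.53 (SE 0.14, adjusted p = 0.234 in limma). The call of Sst was lost without Wnt4low replicate 1, Wnt4hi replicate 2 or Wnt4hi replicate 3, at differences of -0.45, -0.42 and -0.58. Lepr was then the 1 gene of the list that was lower, except without Wnt4hi replicate 2, where Ptprz1 was lower as well. The median of the list was -0.04 without Wnt4low replicate 1, again the value of Spock3. Of the other islet hormones, ghrelin (Ghrl) was higher by 2.10 (SE 0.27, adjusted p = 0.0491 in limma) and pancreatic polypeptide (Ppy) differed by 1.22 (SE 0.20, adjusted p = 0.0826) while peptide YY (Pyy) differed by 0.43 (SE 0.18, adjusted p = 0.490). The median of these 3 was 1.22, and 1.12 without Wnt4low replicate 1. Whichever array was left out, the adjusted p of Ghrl in limma was above 0.05, from 0.0671 to 0.164.

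The genes shared by all islet endocrine cells and the β-cell genes were read beside the α-cell members. All 14 pan-endocrine genes had a difference above 0 and 12 of them an unadjusted p under 0.05, with a median difference of 1.12. With 1 array left out the count ran from 8, without Wnt4hi replicate 3 or 4, to 13, and it was 10 with a median of 0.88 without Wnt4low replicate 1. The log2 of their summed intensity was 17.20 to 17.35 in Wnt4hi and 15.57 to 16.70 in Wnt4low cells. Of 10 β-cell genes, 7 were higher at that threshold, with a median of 1.26, and their summed level was 18.17 to 18.19 against 17.25 to 17.93. The count of β-cell genes ran from 5, without Wnt4hi replicate 3, to 8 with 1 array left out, and the median was 0.89 without Wnt4low replicate 1. Ins1 itself differed by 0.43 and Ins2 by 0.56. The α-cell list, at 16.45 to 16.80 against 14.60 to 16.10, followed the same order of the groups.

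When each array was set relative to its mean over the pan-endocrine genes, the same amount was taken from every difference. Irx1 was then 0.81, Irx2 0.89, Pou3f4 0.31 and Ttr 0.19, while Gc was -0.37, Dpp4 -0.20, Slc7a2 -0.39 and Loxl4 -1.17. The groups overlapped for all of these except Loxl4, whose Wnt4hi arrays were then all below the Wnt4low arrays. Hhex became -2.96, again without overlap. This centring moves the median difference of all features to -1.14, so these values are given relative to endocrine genes and not as calls. Whether the members differed within α-cells was not tested, since the arrays hold mixed cells.

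Genes of blood vessels were lower on the same arrays as Hhex. All 8 endothelial genes were lower in Wnt4hi cells at an unadjusted p under 0.05 and 6 of them at an adjusted p under 0.05, with a median difference of -3.46. Whichever array was left out, all 8 kept the unadjusted call, with medians from -3.61 to -3.28. The adjusted calls were lost without Wnt4hi replicate 3 or 4 or Wnt4low replicate 1 or 4, where no feature of the array passed. Pecam1, Cdh5 and Kdr differed by -3.04, -3.58 and -3.96 (adjusted p of 0.0373, 0.0253 and 0.0189 in limma). The log2 of the summed endothelial intensity was 11.92 to 12.52 in Wnt4hi and 14.81 to 15.70 in Wnt4low cells, and Tek was not well above background on any Wnt4hi array. The part of endothelial cells in the difference of Hhex was not tested.

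Genes of other cell types that the sorted pools could hold also differed. Of 7 mesenchyme genes 5 were lower in Wnt4hi cells at an unadjusted p under 0.05, among them Col1a1 at -1.57, with summed levels of 14.67 to 15.49 against 15.89 to 16.05. Leaving out 1 array gave counts from 2, without Wnt4hi replicate 4 or Wnt4low replicate 4, and 3, without Wnt4hi replicate 3 or Wnt4low replicate 1 or 3, to 6. Of 7 leukocyte genes 4 were lower, among them Ptprc at -2.43, while Csf1r and Adgre1 differed by 0.08 and -0.51 with overlapping groups. The median of the list was -0.87, with summed levels of 13.09 to 13.50 against 13.97 to 14.33. In the acinar list 1 of 8 genes was lower, in the Schwann list 1 of 4, and in the ductal list 1 of 6 was lower and 1 higher. With 1 array left out the counts of lower genes ran from 0 to 2 in the acinar list, being 2 without Wnt4low replicate 1, and from 1 to 2 in the Schwann list, being 2 without Wnt4hi replicate 2, and in the ductal list, being 2 without Wnt4low replicate 3 or 4. The summed levels in Wnt4hi and Wnt4low cells were 12.56 to 13.19 and 12.51 to 14.78 for acinar, 11.22 to 11.76 and 11.73 to 12.14 for Schwann and 14.35 to 14.60 and 13.57 to 14.29 for ductal genes. The median difference of the ductal list was -0.19, with 3 genes above 0 and 3 below. The part of these cell types in the differences of the 9 genes was not tested.

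**Figure D3:**
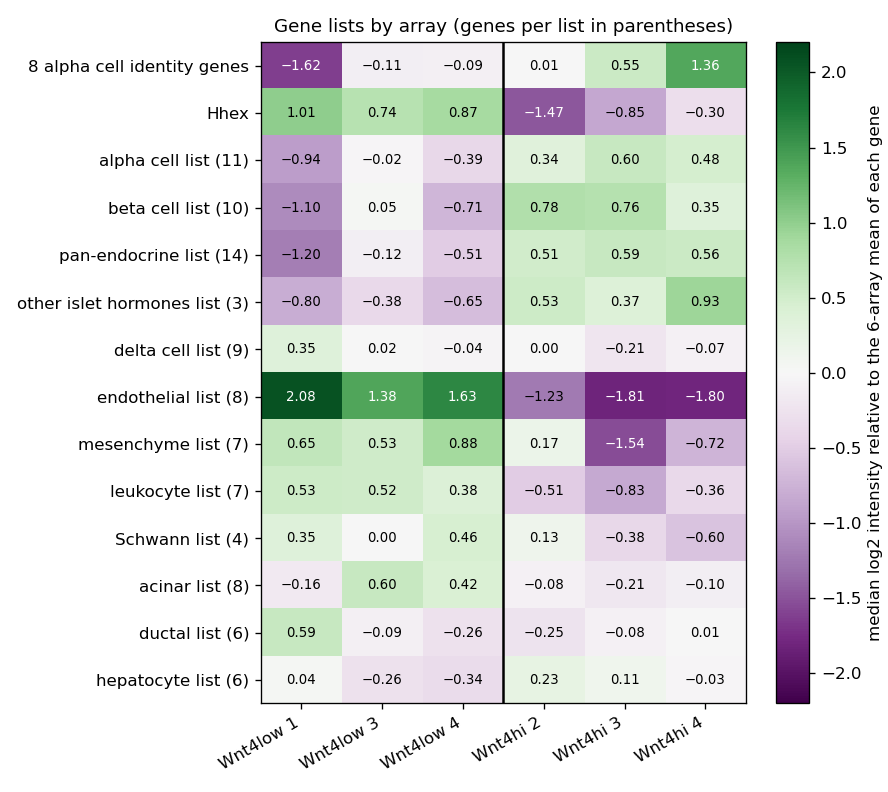
Median log2 intensity of each gene list on each array (columns), relative to the mean of every gene over the 6 arrays, with the 8 α-cell members and Hhex in the first rows and the number of genes of the other lists in parentheses. The α-cell members at -1.62 and the pan-endocrine list at -1.20 are lowest on Wnt4low replicate 1. The δ-cell list is highest on that array at 0.35, but this median is the value of Spock3, which never passed the scanner software's background call. Hhex and the endothelial list are high on all Wnt4low arrays.

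Across 21 other ways of processing the data, Irx1, Irx2, Pou3f4 and Ttr kept a difference above 0 and Hhex one below 0. Leaving aside the pan-endocrine centring, Hhex had an unadjusted p under 0.05 in all 20 others, Pou3f4 in 19, Irx1 in 15, and Irx2 and Ttr in 5. Dpp4 could be tested in 18 of these and passed in 13. With features too dim in both groups left out, Hhex had an adjusted p of 0.0452 among 31996 features in limma. Its difference was -1.75, as with all features. Over the 20 settings its adjusted p ranged from 0.0267 to 0.244. The lower end came from the authors' log2 table, and without the Wnt4hi replicate 2 column of that table, which matched its own array poorly, it was 0.0637.

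**Figure D4:**
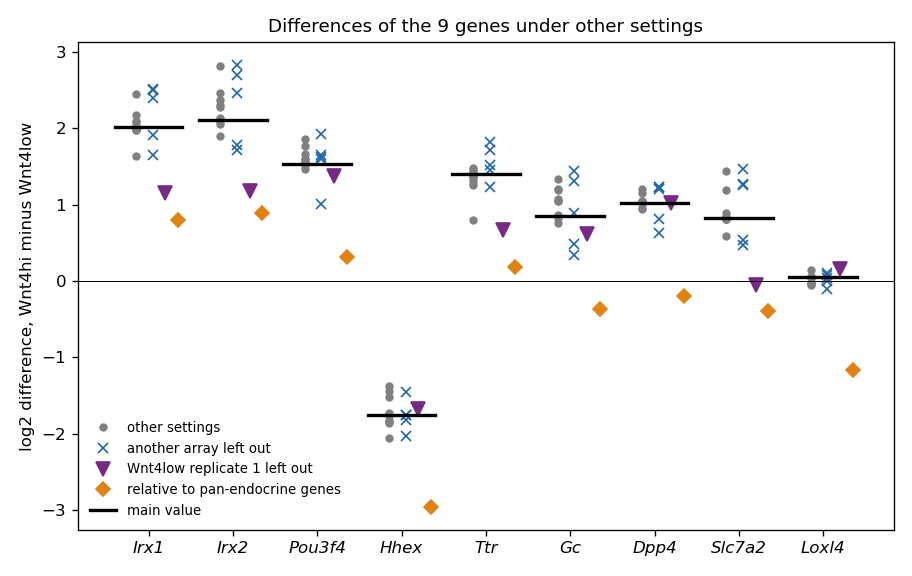
Log2 difference between Wnt4hi and Wnt4low cells (vertical axis) of the 9 genes (horizontal axis) as reported, under other processing settings, with each array left out, and relative to the mean of the pan-endocrine genes. Leaving out Wnt4low replicate 1 brings Irx1 to 1.15, Irx2 to 1.17 and Ttr to 0.67, and Hhex lies below 0 throughout.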

How the data were processed

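The data are 6 single-colour arrays (SurePrint G3 Mouse Gene Expression v2, Cy5) of sorted P1 islet cells, 3 Wnt4hi and 3 Wnt4low, grouped by the sample labels. RNA was amplified before labelling, which can widen the spread of dim genes. For every array the authors deposited what the scanner software wrote, including each spot's median intensity and local background without normalization, and a table of normalized log2 values with a median of 8.91 in every column, on the scale and in the direction of the scanner values and with no centring of genes, although the Wnt4hi replicate 2 column matched its own array poorly. The submitters' processing notes name Agilent Feature Extraction 9.1. Median intensities were corrected by normexp with an offset of 50 and quantile normalized, as in the study's methods, after control spots and spots marked as outliers were left out, with limma 3.58.1 in R 4.3.3. RefSeq-type names were given to 35886 probes, and 32994 of these names were found in the gene table. Of 56605 probes, the one with the highest mean stood for its gene, which gave 45616 features for lmFit and eBayes without covariates. Well above background is the call of the scanner software. Each sample was a pool of pups, so p-values measure the spread between pools, and 3 arrays a group limit the precision. All arrays lay on 1 slide. Genes were named by a rule that allows the 9 genes with every probe, the genes of the α-cell, δ-cell and hormone lists, the first 3 genes of other lists, Wnt4, and the 2 most alike genes of each member. Tek, Fgb, Serpina1a and Ahsg were named after their values were seen. The members and lists were chosen with earlier results of these data known. Some α-cell genes are not reported here and were left out of the list. The scripts were tested on simulated data. Alternatives changed the background correction, scaling, filter, choice of probe, variance model, replicate block and the arrays used, or took the deposited log2 table.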

Additional observations from a re-analysis of the deposited data

How the results depend on the processing

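No member passed at an adjusted p under 0.05 in limma apart from Hhex, alone with dim features left out (1 lower, -1.75) and in the authors' log2 table (1 lower, -1.52, adjusted p = 0.0267, but 0 lower and 0.0637 without its Wnt4hi replicate 2 column), and with Loxl4 relative to the pan-endocrine mean (2 lower). That centring gave 0 members higher and 2 lower at an unadjusted p under 0.05, 0 further α-cell genes higher and 4 lower, and 0 δ-cell genes higher and 7 lower. It calls 29752 of 45616 features at an adjusted p under 0.05. At an unadjusted p under 0.05, the processed signal gave 0 δ-cell genes higher and cyclic loess gave 1 member higher, Pou3f4. With cyclic loess Irx1 was 1.97 and Dpp4 0.96, with an unadjusted p of 0.059 and 0.058 in limma. At the same threshold, leaving out each array in turn gave 1 to 4 members higher (1 without Wnt4hi replicate 4 or Wnt4low replicate 1), 5 to 7 further α-cell genes higher and 2 or 3 lower, and 1 to 2 δ-cell genes lower (1 without Wnt4hi replicate 3 or Wnt4low replicate 1). Only 9 features over the whole array passed an adjusted p under 0.05 without Wnt4low replicate 3, 1 without Wnt4hi replicate 2 and none without any of the other arrays, where 4080 to 4505 passed at an unadjusted p under 0.05 in limma.

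Directions turned for Loxl4 with the processed signal (-0.041), cyclic loess (-0.02), the mean of its probes (-0.04), the authors' table (-0.057), that table without its Wnt4hi replicate 2 column (-0.014), without Wnt4low replicate 4 (-0.10, with up to 0.16 when another array was left out) and relative to the pan-endocrine mean (-1.17). The last takes the same amount from every difference, so the sign also turned for Gc (-0.37), Dpp4 (-0.20) and Slc7a2 (-0.39). It turned for Slc7a2 without Wnt4low replicate 1 (-0.05, with up to 1.47 when another array was left out). The other causes were not tested. The authors' table without that column was tried after seeing the data, because the column correlated at 0.271 with its own scanner array, against 0.843 to 0.872 for the others. The table was not used for Dpp4, and Gc was too dim to be tested with dim features left out.

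Replicate numbers 3 and 4 occur in both groups, with 4 pups pooled for each replicate 3 and 3 for each replicate 4. The sources used here do not settle whether equal numbers mark the same pups. Deviations from the group means correlated at -0.03 and 0.16 between same-numbered arrays. With a fixed replicate block, which rests on these 4 arrays, 5 members were higher (Irx1, Irx2, Pou3f4, Ttr and Dpp4), 0 δ-cell genes were higher and no feature of the array passed an adjusted p under 0.05, with 4857 at an unadjusted p under 0.05. Ttr then differed by 0.79, against 1.405 in the main fit. Irx1 and Irx2 were also smaller, at 1.63 and 1.90, and Pou3f4 and Dpp4 were larger, at 1.77 and 1.21. With a random replicate block, 3 members were higher and 1 lower. Dim probes limit Gc, and 1 Wnt4low array limits Irx2.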
